A study of Mus musculus with 24 samples.

Results

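Expression of 9 genes that release, carry or take up fatty acids was read across 3 subtypes of mouse cortical projection neuron as they differentiated. The genes are Lpl, Lipg, Lmf1, Angptl4, Fabp3, Fabp5, Fabp7, Slc27a1 and Slc27a4. They were found by gene name and make up 9 of the 32310 entries of the deposited table. They were picked by function, with their FPKM values over the stages and subtypes already known, so their levels and differences are given as a description and carry no test.

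Lipoprotein lipase, encoded by Lpl, cuts triglycerides in lipoprotein particles and frees fatty acids, and in the body it acts mainly at the capillary wall of muscle, heart and fat. Neurons of the brain also make it. Fatty acids that enter a cell are handled by membrane-associated transport proteins of the Slc27 family and by small cytosolic fatty acid binding proteins, the Fabp family, before they are activated with coenzyme A and used for membranes, storage or oxidation.

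The neurons came from CD1 mice and were purified by fluorescence-activated cell sorting at embryonic days 15, 16 and 18 (E15, E16, E18) and at postnatal day 1 (P1). Callosal neurons connect the hemispheres, corticothalamic neurons project to the thalamus, and subcerebral neurons reach the brainstem or spinal cord. No group carried a mutation or received a treatment, per the labels. Each of the 12 groups had 2 poly(A)-selected RNA libraries. How each subtype was marked for sorting is not stated in the labels, and neither is whether both libraries of 1 group represent different animals, so any p-value measures only the spread between these values.

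The table holds 1 pooled value for each group, taken to be FPKM, a fragment number scaled to transcript length and to the size of the library. No SD or n can be attached to a single value, and the depth behind it is unknown. Differences are given on a log2(FPKM + 1) scale, and folds are ratios of FPKM at a single stage or of 2 stages within a subtype. An error across stages is the SD of the 4 stage-wise differences. Summed markers were highest in the groups of their label. The 6 callosal marker genes summed to 701-963 FPKM in callosal neurons and to 40.0-115 elsewhere, and 6 subcerebral markers to 459-749 in subcerebral neurons and at most 302 elsewhere. The 6 corticothalamic markers summed to 681-889 FPKM in corticothalamic neurons, but they also reached 507 in subcerebral neurons at E15, against 167, 100.01 and 80.9 there at E16, E18 and P1. Single markers did not all follow their label. The subcerebral markers Crym and Pcp4 were lower in subcerebral than in corticothalamic neurons at E15 (8.66 against 16.4 and 6.09 against 25.8 FPKM) and E16 (42.6 against 59.6 and 5.69 against 21.4). The corticothalamic marker Sox5 was higher in subcerebral neurons at E15 (128 against 106 FPKM). At E15 the callosal group also had 56.0 FPKM over 7 interneuron genes, against 1.97-16.97 in the other groups. In sorted bulk samples, fewer cells of a type and less RNA per cell cannot be told apart.

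Of the 9 genes, 7 exceeded 1 FPKM in every group. Lipg reached 1 FPKM in 6 groups and Angptl4 in 2, so both passed the minimum of 1 FPKM in at least 2 groups only through the groups where they were high. On the FPKM scale Fabp5 was the most abundant of the 9 in every group and Lipg or Angptl4 the least. The spread of these courses is shown in the plot of expression by stage and subtype.

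**Figure D1:**
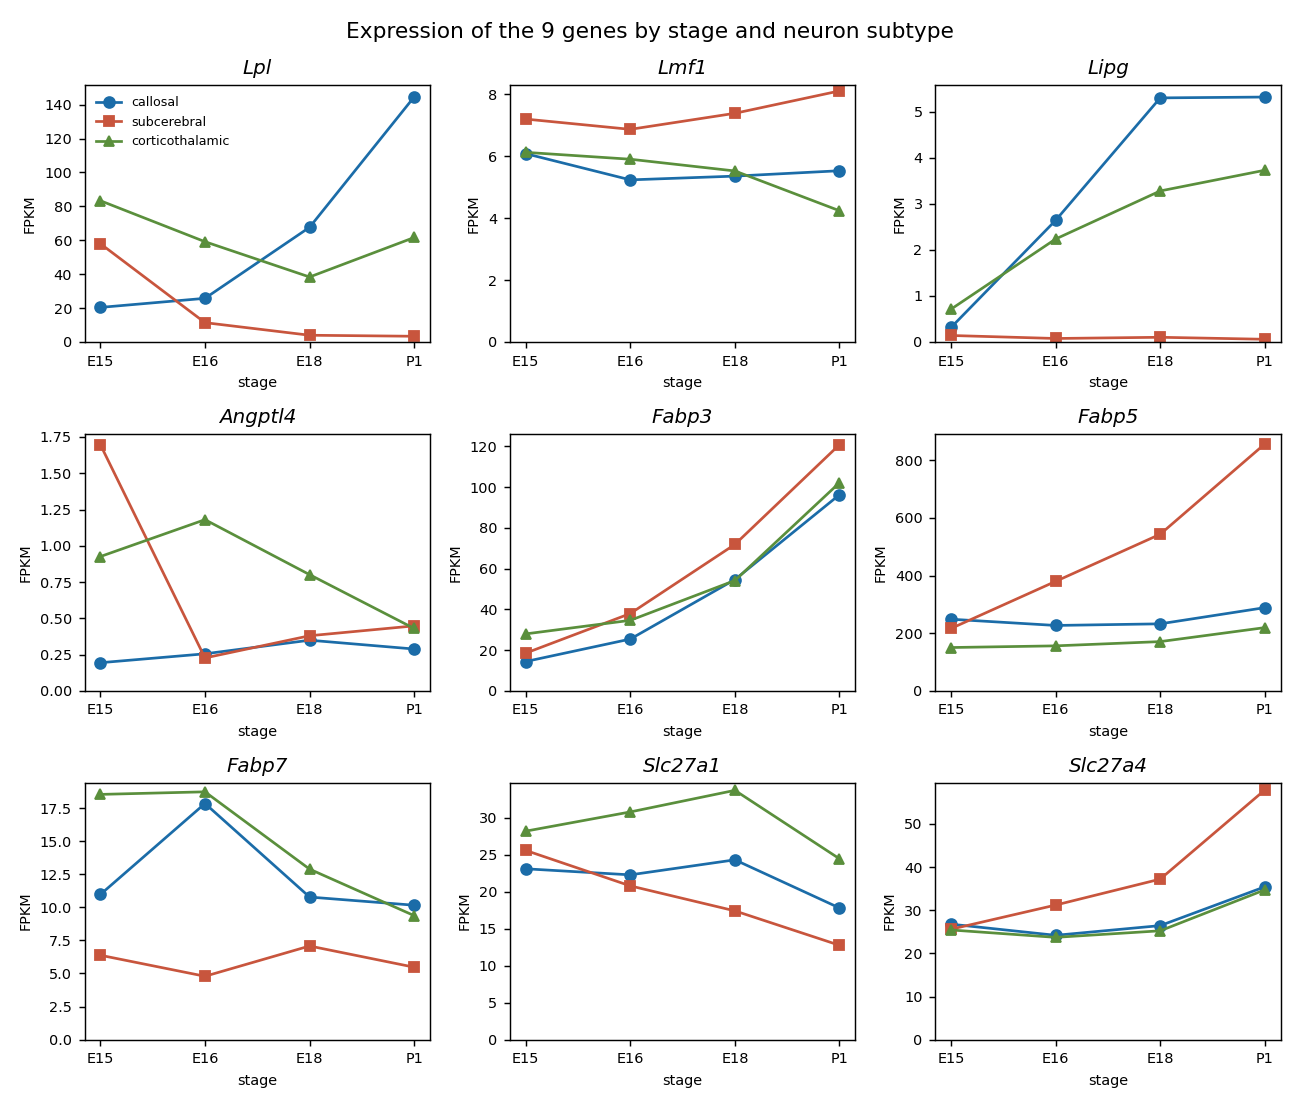
Expression in FPKM (vertical axis, linear, from 0, scaled separately in each panel) against stage for each of the 9 genes. Each point is the authors' single pooled value for a group and lines join the stages of a subtype. Lpl ends at 145 FPKM in callosal and 3.37 in subcerebral neurons, while Fabp3 is at 96.3-121 FPKM at P1 in all 3 subtypes.

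The course of Lpl differed in direction between subtypes. In callosal neurons Lpl stood at 20.4, 25.8, 67.7 and 145 FPKM at E15, E16, E18 and P1, each stage above the one before, and P1 was 7.09-fold above E15. In subcerebral neurons it stood at 58.0, 11.4, 3.97 and 3.37 FPKM, each stage below the one before, and E15 was 17.2-fold above P1. In corticothalamic neurons it stood at 83.3, 59.2, 38.3 and 61.6 FPKM, with no single direction.

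The order of the subtypes for Lpl was therefore not the same at every stage. At E15 corticothalamic neurons had the highest level and callosal neurons the lowest, with subcerebral neurons 2.84-fold above callosal. From E16 on the subcerebral level was the lowest, with callosal neurons 2.26-fold above it at E16, 17.03-fold at E18 and 42.9-fold at P1. Corticothalamic neurons exceeded subcerebral neurons at all 4 stages, by 1.44-fold, 5.19-fold, 9.65-fold and 18.3-fold. Between callosal and corticothalamic neurons the order turned around between E16 and E18: corticothalamic neurons were 4.09-fold and 2.30-fold higher at E15 and E16, and callosal neurons 1.76-fold and 2.35-fold higher at E18 and P1.

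The mean of a difference over the stages is given with its spread. The callosal minus subcerebral difference of Lpl averaged 2.12 with an SD of 2.90 on the log2(FPKM + 1) scale, from -1.46 at E15 to 5.06 at P1. The callosal minus corticothalamic difference averaged -0.28 with an SD of 1.54, and it was 0.28 without E15 and 0.01 without E16. Only subcerebral minus corticothalamic kept its sign at all 4 stages, at -0.52, -2.28, -2.98 and -3.84, with a mean of -2.40 and an SD of 1.41. Set among the 13946 genes tested, the difference between the callosal and the subcerebral change from E15 to P1 was 6.52 for Lpl, the second highest of all. Lpl was chosen with this divergence in view, so its rank is a description.

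Levels of marker genes are given beside those of Lpl. The corticothalamic marker sum in subcerebral neurons was at its highest at E15, where Lpl was also highest in that subtype, and both were lowest at P1. In callosal neurons the sum of 10 microglial genes was 5.05, 41.5, 21.2 and 21.4 FPKM at E15, E16, E18 and P1, against 4.13-8.96 in the other subtypes. Csf1r, a receptor that defines microglia, stood at 0.437, 5.33, 2.78 and 2.86 FPKM in callosal neurons and at no more than 0.14 elsewhere. C1qa, C1qb, C1qc, Tyrobp and Trem2 were each listed at 0 in at least 1 group. Aif1, another of the 10, went the other way, at 1.88, 5.76, 4.51 and 4.78 FPKM in callosal neurons, the lowest subtype at each stage. Aif1 stood at 3.81-7.09 FPKM in subcerebral and 5.41-8.34 in corticothalamic neurons, most of the microglial sum there. Callosal Lpl stood at 20.4, 25.8, 67.7 and 145 FPKM at the same 4 stages. The 8 endothelial genes summed to 2.31-5.35 FPKM over all groups, and none of 6 pericyte genes reached 1 FPKM. The part of these other cells in the Lpl values was not tested.

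**Figure D2:**
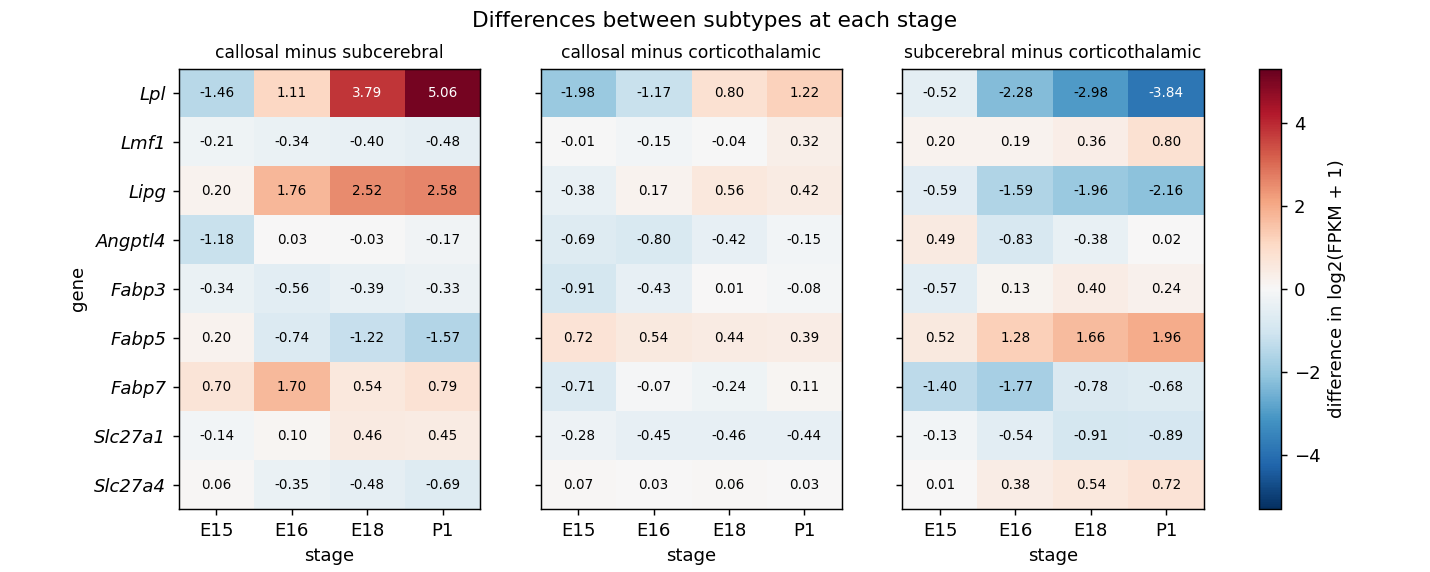
Differences in log2(FPKM + 1) between each pair of subtypes (panels) for each gene (vertical) at each stage (horizontal), with the value printed in each cell, red where the first-named subtype is higher and blue where it is lower. Lpl changes from -1.46 at E15 to 5.06 at P1 in callosal minus subcerebral, while Lmf1 and Fabp7 keep their sign in that panel at all 4 stages.

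Lipg encodes endothelial lipase, a relative of lipoprotein lipase that prefers phospholipids. In callosal neurons Lipg stood at 0.315, 2.64, 5.304 and 5.32 FPKM over the stages. In corticothalamic neurons it stood at 0.713, 2.24, 3.28 and 3.73 FPKM. In subcerebral neurons it never passed 0.141 FPKM and was 0.0587 at P1. All 4 callosal and all 4 corticothalamic values lay above all 4 subcerebral ones.

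The gap in Lipg was small at E15 and wide from E16 on. Callosal levels were 2.23-fold, 34.8-fold, 52.0-fold and 90.6-fold the subcerebral ones from E15 to P1, and corticothalamic levels were 5.05-fold, 29.5-fold, 32.2-fold and 63.5-fold. The denominators are far below 1 FPKM and of unknown depth, so these ratios are imprecise. The mean callosal minus subcerebral difference was 1.76 on the log2(FPKM + 1) scale and 3.65 with a pseudocount of 0.1. The mean subcerebral minus corticothalamic difference was -1.57 and -3.54 on the same scales.

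Over the 12 groups Lpl and Lipg had a Pearson correlation of 0.69 in log2(FPKM + 1). Both lipase genes were at their callosal maximum at P1, and both were lowest in subcerebral neurons from E16 on. At E15 they parted: subcerebral Lpl was at 58.0 FPKM while subcerebral Lipg was at 0.141. Correlations here are descriptions, because values of 1 group share libraries, depth and cell makeup.

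Lmf1 encodes lipase maturation factor 1, a protein of the endoplasmic reticulum needed to fold lipoprotein lipase and endothelial lipase into active enzyme. Its 12 values spanned 4.24-8.12 FPKM. Lmf1 stood at 6.09, 5.24, 5.36 and 5.54 FPKM in callosal, 7.21, 6.87, 7.39 and 8.12 in subcerebral, and 6.13, 5.91, 5.53 and 4.24 in corticothalamic neurons. All 4 subcerebral values exceeded every value of both other subtypes. The subtype with the least of either lipase transcript at E18 and P1 thus had the most Lmf1. The ratio of Lpl to Lmf1 FPKM went from 3.35 at E15 to 26.1 at P1 in callosal neurons and from 8.05 to 0.415 in subcerebral neurons, and in corticothalamic neurons it was 13.6, 10.01, 6.93 and 14.5. Lmf1 and Lipg had a correlation of -0.84 over the 12 groups.

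Angptl4 encodes a secreted protein that inactivates lipoprotein lipase. It was scarce. In callosal neurons it stood at 0.194, 0.255, 0.349 and 0.288 FPKM. In subcerebral neurons it stood at 1.70 FPKM at E15 and then at 0.227, 0.380 and 0.448. In corticothalamic neurons it stood at 0.926, 1.18, 0.801 and 0.430 FPKM, all 4 above every callosal value. The highest Angptl4 value, in subcerebral neurons at E15, came from the group that also had the highest subcerebral Lpl. The mean callosal minus corticothalamic difference was -0.51, and -1.28 with a pseudocount of 0.1. The subcerebral minus corticothalamic difference averaged -0.18 and was 0.04 without E16, so no order of those subtypes is given.

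Fatty acid binding proteins carry fatty acids through the cytosol, and 3 of them are among the 9 genes. Fabp3, the form known from heart and muscle, and Fabp7, the form known from the developing brain and from radial glia, belong to the same family but ran different courses over the same stages. The 250 bases before the transcription start of each are shown for that contrast, on the plus strand of GRCm38.p6 from RefSeq, at chr4:130308488-130308737 for Fabp3 and chr10:57784673-57784922 for Fabp7. Capitals mark matches to the motifs searched.
Fabp3: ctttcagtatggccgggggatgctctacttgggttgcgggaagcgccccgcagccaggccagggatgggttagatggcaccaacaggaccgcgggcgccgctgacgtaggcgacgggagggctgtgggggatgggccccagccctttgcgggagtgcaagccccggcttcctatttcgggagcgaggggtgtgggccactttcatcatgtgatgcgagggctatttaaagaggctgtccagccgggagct
Fabp7: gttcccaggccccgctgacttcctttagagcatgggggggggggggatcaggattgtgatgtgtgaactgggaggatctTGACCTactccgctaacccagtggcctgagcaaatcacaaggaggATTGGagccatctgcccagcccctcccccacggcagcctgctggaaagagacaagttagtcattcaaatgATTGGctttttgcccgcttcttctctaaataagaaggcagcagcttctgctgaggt
The motifs were AGGTCA (a nuclear receptor half-site), ATGCAAAT (the octamer bound by POU factors), CCAAT (the CCAAT box), TATAAA (the TATA box) and GGGCGG (the GC box), each on both strands, and none of them overlapped another in these windows. The Fabp7 window held AGGTCA on the reverse strand 171 bases before the start, and CCAAT on the reverse strand 126 and 56 bases before it. The Fabp3 window held none of the 5. Over 32851 RefSeq mouse promoters of the same length, 14.0% held AGGTCA, 1.6% ATGCAAAT, 33.8% CCAAT, 12.4% TATAAA and 32.7% GGGCGG. These matches describe letters and no binding was measured.

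Fabp3 had the same course in every subtype. It stood at 14.4, 25.4, 54.6 and 96.3 FPKM in callosal, 18.5, 37.9, 71.9 and 121 in subcerebral, and 27.9, 34.6, 54.1 and 102 in corticothalamic neurons. Each stage exceeded the one before in all 3 subtypes. P1 was 6.70-fold, 6.54-fold and 3.66-fold above E15 in callosal, subcerebral and corticothalamic neurons, and the P1 values of 96.3-121 FPKM lay well clear of the E15 values of 14.4-27.9. The mean change was 2.38 on the log2(FPKM + 1) scale, with an SD of 0.47 over the 3 subtypes.

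Fabp7 had no such course. It stood at 10.97, 17.8, 10.8 and 10.2 FPKM in callosal neurons, 6.38, 4.79, 7.08 and 5.47 in subcerebral neurons, and 18.5, 18.7, 12.9 and 9.37 in corticothalamic neurons. All callosal and all corticothalamic values exceeded all subcerebral ones. The callosal to subcerebral ratio was 1.72, 3.73, 1.52 and 1.86 from E15 to P1, and the corticothalamic to subcerebral ratio 2.91, 3.91, 1.82 and 1.71.

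Fabp7 also marks radial glia and astrocytes, so their other markers bear on it. The 12 listed genes of those cells summed to 87.3-101 FPKM in callosal, 68.6-99.3 in subcerebral and 60.3-109 in corticothalamic neurons, with Gfap and Aqp4 listed at 0 in some groups. By single genes, 8, 10, 9 and 9 of the 12 were lower in subcerebral than in callosal neurons at E15, E16, E18 and P1, and 10, 8, 7 and 8 were lower than in corticothalamic neurons. The share of all genes with that order was not counted, so nothing is read from these counts. The sum did not keep the order of Fabp7. It was higher in subcerebral than in callosal neurons at E15 (99.3 against 98.1 FPKM). It was also higher than in corticothalamic neurons at E18 (79.0 against 75.3) and P1 (68.6 against 60.3). Glul, at 33.8-58.0 FPKM, and Vim, at 3.86-29.7, made up most of the sum. Against corticothalamic neurons, subcerebral Vim stood at 19.9 against 7.58 FPKM at E18 and 11.4 against 3.86 at P1. Hes1 stood at 13.5 against 0.975 FPKM at P1. Sox9, Hes5, Nes and Pax6 were lower in subcerebral neurons at E18 and P1, and Slc1a3 was higher. The part of glial cells in the Fabp7 values was not tested.

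Fabp5, the form known from skin and also found in developing neurons, was at the 99.0th percentile of mean FPKM among the genes tested. It stood at 248, 227, 232 and 289 FPKM in callosal neurons and at 150.2, 156, 171 and 219 in corticothalamic neurons, with every callosal value above every corticothalamic one. In subcerebral neurons it stood at 216, 379.8, 543 and 857 FPKM. P1 was 3.96-fold above E15 there, against 1.16-fold in callosal and 1.46-fold in corticothalamic neurons. Subcerebral levels were 0.871, 1.67, 2.34 and 2.97 times the callosal ones and 1.44, 2.43, 3.18 and 3.91 times the corticothalamic ones.

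The course of Fabp5 thus ran against that of Lpl in subcerebral neurons, and over the 12 groups their correlation was -0.81. The difference between the callosal and subcerebral changes from E15 to P1 was -1.77 for Fabp5, the 175th lowest of 13946, beside the 6.52 of Lpl. Mouse Fabp5 and Fabp3 each have processed pseudogene copies in the GENCODE annotation of GRCm38. How the authors assigned reads shared with such copies is not stated in the labels, so both levels carry that uncertainty.

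**Figure D3:**
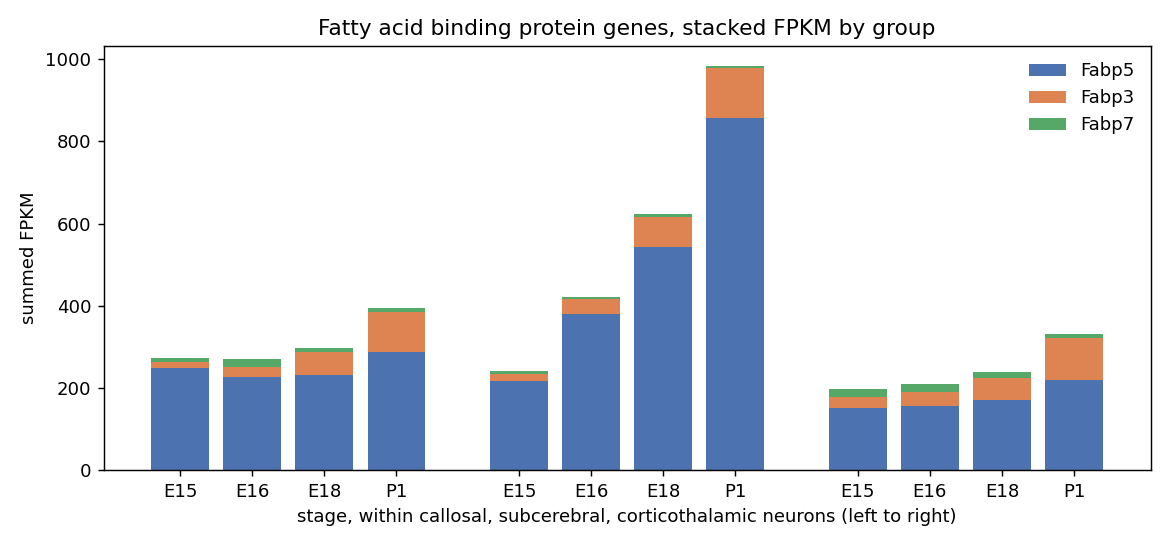
Summed FPKM of Fabp5, Fabp3 and Fabp7 (vertical axis, linear, from 0) for each group, with 4 stages inside each subtype. The subcerebral bar goes from 241 FPKM at E15 to 983 at P1, mostly Fabp5, while the callosal and corticothalamic bars end at 395 and 331 FPKM.

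The plot of stacked Fabp values shows how the makeup of the family moved. The sum of the 3 genes went from 274 to 395 FPKM in callosal, 241 to 983 in subcerebral and 197 to 331 in corticothalamic neurons between E15 and P1. Fabp5 made up 90.7% of the sum at E15 and 73.1% at P1 in callosal neurons, 76.4% and 66.3% in corticothalamic neurons, and 89.7% and 87.2% in subcerebral neurons. Fabp3 went from 5.25% to 24.4%, from 14.2% to 30.9%, and from 7.67% to 12.3% in the same order. Fabp3 gained share in every subtype, and least in subcerebral neurons. Fabp5 was higher at each later stage in subcerebral and also in corticothalamic neurons. No other Fabp gene was at a comparable level: Fabp4, the form of fat cells, was at most 0.149 FPKM, and Pmp2, the myelin form, was listed at 0 in all 12 groups.

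Slc27a1 and Slc27a4 encode fatty acid transport proteins that also have acyl-CoA synthetase activity. Slc27a1 stood at 23.1, 22.3, 24.3 and 17.8 FPKM in callosal, 25.6, 20.8, 17.4 and 12.8 in subcerebral, and 28.2, 30.8, 33.7 and 24.4 in corticothalamic neurons. Every corticothalamic value exceeded every callosal one, and the subcerebral level was lower at each later stage. Slc27a4 stood at 26.8, 24.2, 26.4 and 35.4 FPKM in callosal, 25.6, 31.2, 37.2 and 57.9 in subcerebral, and 25.4, 23.7, 25.2 and 34.7 in corticothalamic neurons. Its E15 values lay within 25.4-26.8 FPKM and its P1 values at 34.7-57.9.

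The balance of the transporters shifted most in subcerebral neurons. The ratio of Slc27a4 to Slc27a1 FPKM was 1.00 at E15 and 4.54 at P1 in subcerebral neurons. It went from 1.16 to 1.99 in callosal and from 0.902 to 1.42 in corticothalamic neurons. Over the 12 groups Fabp5 had a correlation of 0.89 with Slc27a4 and of -0.93 with Slc27a1.

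How often the 9 genes kept subtypes apart can be read against all genes. Between callosal and subcerebral neurons, 2 of 9 (Lipg and Fabp7) had all callosal values above all subcerebral ones, beside 5.13% of the genes tested, and 1 (Lmf1) had them below, beside 5.57%. Between callosal and corticothalamic neurons, 1 (Fabp5) lay above without overlap, beside 7.68%, and 2 (Angptl4 and Slc27a1) below, beside 8.02%. Between subcerebral and corticothalamic neurons, 1 (Lmf1) lay above, beside 5.41%, and 2 (Lipg and Fabp7) below, beside 4.65%. Between P1 and E15, 2 (Fabp3 and Slc27a4) had all P1 values higher, beside 27.6%, and 0 had them lower, beside 28.5%. Since the genes were chosen with these values known, nothing further is read from the counts. Lpl is in none of them.

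The wider lipid pathway was described with 8 lists holding 122 genes, of which 84 passed the minimum level, and here tests were made. A subtype comparison used limma on log2(FPKM + 1) with additive stage and subtype terms, and a gene was called at an adjusted p under 0.05 over all 13946 genes. Because each group has 1 value, the p-value does not measure the spread between libraries. It sets a difference against the departures of all groups from additive stage and subtype effects, for P1 minus E15 as well. Those departures include groups outside the comparison, so the p-value does not measure how evenly the named difference held.

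Several partners that lipoprotein lipase has elsewhere in the body were at or near 0. Gpihbp1, the capillary anchor of the enzyme, never passed 0.0191 FPKM, and Apoc2, its activating apolipoprotein, was listed at 0 in all 12 groups. Cd36, a fatty acid receptor of muscle, fat and vessels, was at most 0.109 FPKM. Ppara and Pparg, nuclear receptors that fatty acids activate, were at most 0.059 and 0.0975 FPKM. These genes were picked after their values were seen, and other genes of the same lists were expressed. Sel1l stood at 25.2-40.5 FPKM and Furin at 7.58-18.4, both from the list of lipase partners. Ppard, of the same family as Ppara and Pparg, stood at 1.19-4.52 FPKM.

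Between callosal and subcerebral neurons 28 of the 84 genes were called, 14 higher and 14 lower in callosal neurons, which is 33.3% against 29.3% of all genes. The median difference was -0.01 in the lists and -0.01 over all genes tested. The list of lipase partners and other lipases had 2 higher and 3 lower of 8 tested. Pcsk5, a proprotein convertase of a family that cuts lipoprotein lipase and endothelial lipase, was lower in the callosal groups, at a log2 difference of -2.51 with an SE of 0.20 from the fit (limma adjusted p = 0.000182). Mgll, monoacylglycerol lipase, which in brain also degrades the endocannabinoid 2-arachidonoylglycerol, differed by -2.42 ± 0.18 (limma adjusted p = 0.00012). Mgll stood at 0.324-1.71 FPKM in callosal, 4.13-11.52 in subcerebral and 16.3-26.8 in corticothalamic neurons. Pcsk5 stood at 0.127-0.389, 4.88-8.34 and 6.08-12.9 FPKM in the same order. Neither reached 1 FPKM in 2 callosal groups, so both passed the minimum through groups where they were high. Their calls, here and against corticothalamic neurons, are therefore only a description.

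The list of lipoprotein receptors and their ligand Apoe had 5 higher and 0 lower of 9 tested in callosal against subcerebral neurons. Of all genes, 14.1% were called higher and 15.2% lower in that comparison. Apoe, the main apolipoprotein of the brain, led it at 1.29 ± 0.27 (limma adjusted p = 0.0105). The call for Apoe was lost without E16 (0.0753), without E18 (0.0919) and without P1 (0.0662), all limma adjusted p-values. Callosal Apoe stood at 7.36, 20.3, 13.7 and 21.2 FPKM, with its low E15 value in the group whose microglial sum was also lowest among callosal neurons, and the part of microglia in this difference was not tested. Of the fatty acid oxidation genes 2 were higher and 3 lower of 17, and of the synthesis and desaturation genes 2 were higher and 3 lower of 18. Fads1, a desaturase of polyunsaturated fatty acids, was higher by 0.61 ± 0.06 (limma adjusted p = 0.000471), and it kept its call whichever stage was left out, as did Pcsk5 and Mgll. Of the 19 genes eligible to be named by rule in this comparison, 5 did so. Leaving out E16 took the whole count of 28 to 6, leaving out E18 to 6 and leaving out P1 to 14. The share of all genes called went from 29.3% to 8.01%, 7.29% and 15.99% in the same fits.

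Between callosal and corticothalamic neurons 39 of the 84 genes were called, 24 higher and 15 lower, which is 46.4% against 31.3% of all genes. The median difference was 0.10 in the lists and 0.01 over all genes. Fatty acid synthesis and desaturation had 9 higher and 1 lower of 18, beside 15.3% of all genes higher and 16% lower. Fasn, fatty acid synthase, was higher in callosal neurons by 0.73 ± 0.14 (limma adjusted p = 0.00536), and Acaca, acetyl-CoA carboxylase, which makes its malonyl-CoA substrate, by 0.63 ± 0.09 (limma adjusted p = 0.00136). Lipase partners and other lipases had 1 higher and 5 lower of 8, led by Mgll at -3.57 ± 0.18 and Pcsk5 at -3.03 ± 0.20 (limma adjusted p = 1.28e-05 and 4.07e-05).

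Of 5 other fatty acid carriers 1 was called, higher in callosal neurons, and of 13 genes of triglyceride synthesis and lipid droplets 3 were higher and 3 lower. The carrier was Mfsd2a, a transporter of lysophosphatidylcholine that carries omega-3 fatty acids, with a difference of 1.77 ± 0.29 (limma adjusted p = 0.00264). It stood at 26.3, 9.61, 6.14 and 3.99 FPKM in callosal, 10.8, 6.75, 3.48 and 1.53 in subcerebral and 2.46, 2.39, 1.73 and 1.37 in corticothalamic neurons. Cidea, a lipid droplet protein known from brown fat, was lower in the callosal groups, at -2.21 ± 0.24 (limma adjusted p = 0.000371). In callosal neurons Cidea was listed at 0 at E15 and stood at 0.046, 0.182 and 1.35 FPKM at E16, E18 and P1. It stood at 1.42-12.5 FPKM in corticothalamic neurons. Cidea too passed the minimum through groups where it was high, so its call is only a description. Of the 21 genes eligible to be named by rule in this comparison, 9 kept their call whichever stage was left out. The 6 genes named here are among those 9. The count of 39 was 19 without E16 and 17 without E18, and the share of all genes called went from 31.3% to 13.4% and 14.5%.

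Between subcerebral and corticothalamic neurons 30 of the 84 genes were called, 18 higher and 12 lower, which is 35.7% against 27.5% of all genes. With another scaling of the columns, by median ratios, the split was 15 higher and 16 lower. The median difference was 0.10 in the lists and -0.00 over all genes. Fatty acid synthesis and desaturation had 7 higher and 0 lower of 18, beside 14.7% of all genes higher and 12.8% lower. These calls rested on the stages kept. Over all 84 genes 0 were called higher and 3 lower without E16, and 1 higher and 2 lower without E18. The values of the 7 genes were all higher in subcerebral neurons at E16, E18 and P1. At E15 Ptpla and Fads2 were lower there (6.94 against 6.96 and 63.4 against 64.7 FPKM), and the rest were higher. This comparison leaned on single stages more than the others: 50 genes were called without E15, but 3 when E16 was left out, 3 when E18 was, and 10 when P1 was. The share of all genes called went from 27.5% to 44.9%, 2.37%, 1.80% and 7.54% in the same order. Of the 20 genes named by rule, 2 kept their call whichever stage was left out. They were Sort1, a sorting receptor that binds lipoprotein lipase, at -0.81 ± 0.09 (limma adjusted p = 0.00182), and Lipa, the lysosomal acid lipase, at -0.66 ± 0.08 (limma adjusted p = 0.00239), both lower in subcerebral neurons.

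**Figure D4:**
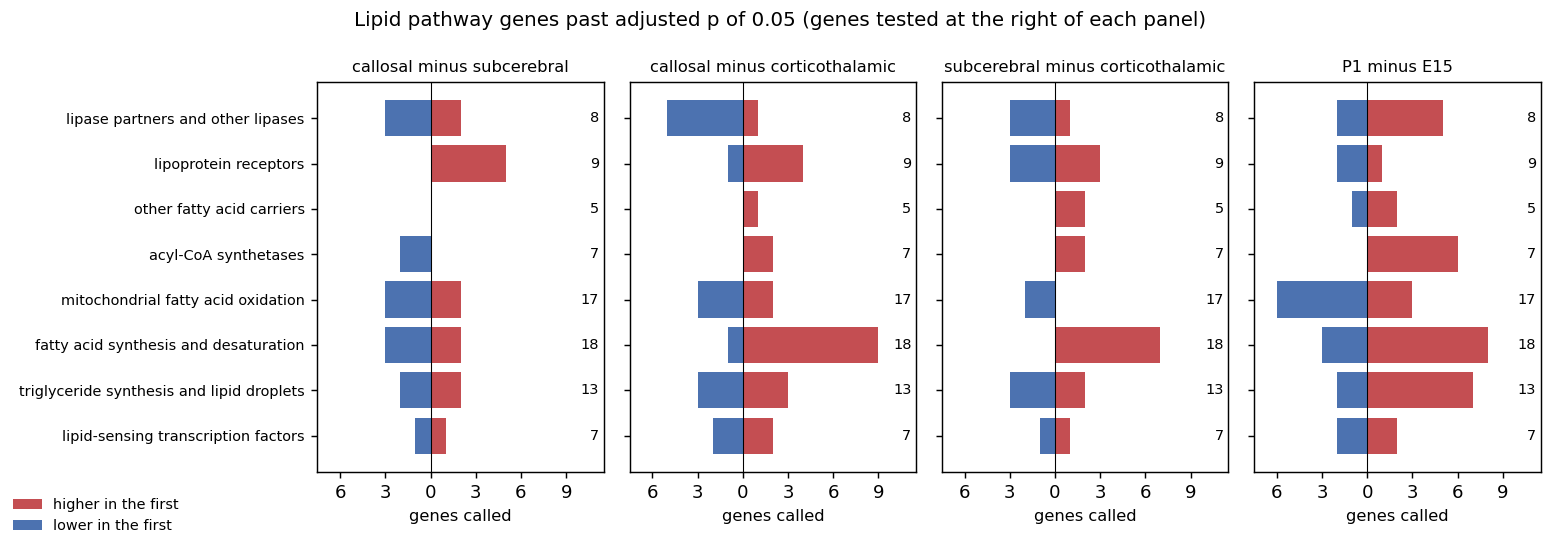
Number of genes called at a limma adjusted p under 0.05 (horizontal axis) in each of the 8 lipid lists (vertical axis) for the 4 comparisons (panels), to the right where the first-named group is higher and to the left where it is lower, with the number tested at the right edge. Fatty acid synthesis has 9 higher of 18 in callosal against corticothalamic neurons, beside 15.3% of all genes. Of 7 acyl-CoA synthetases 6 are higher at P1 than at E15, beside 33.8% of all genes.

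Between E15 and P1 52 of the 84 genes were called, 34 higher and 18 lower at P1, which is 61.9% against 67.4% of all genes, so lipid genes were called no more often than others. The median change was 0.18 in the lists and 0.00 over all genes. Acyl-CoA synthetases, which activate the fatty acids that binding proteins deliver, had 6 higher and 0 lower of 7 tested, beside 33.8% of all genes higher at P1. Acsl5 rose by 2.34 ± 0.21, Acsl1 by 2.03 ± 0.19 and Acsl4 by 1.38 ± 0.17 (limma adjusted p = 3.45e-05, 3.76e-05 and 0.000166). Acsl1 stood at 10.4, 18.5 and 10.4 FPKM at P1 in callosal, subcerebral and corticothalamic neurons, and at 2.07, 2.42 and 2.51 at E15.

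Genes of triglyceride synthesis and lipid droplets had 7 higher and 2 lower of 13 at P1. Dgat2, which adds the last fatty acid to a triglyceride, rose by 2.39 ± 0.11 (limma adjusted p = 3.96e-06), from 2.67-3.12 FPKM at E15 to 16.02-26.7 at P1. Lpin1, a phosphatidate phosphatase and coactivator, fell by 1.03 ± 0.07 (limma adjusted p = 7.51e-06). Among the receptors, Scarb1, which takes up lipid from high-density lipoprotein, rose by 1.89 ± 0.15 (limma adjusted p = 1.96e-05), while the list had 1 higher and 2 lower of 9.

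Oxidation genes had 3 higher and 6 lower of 17 at P1, and 33.6% of all genes tested were lower. Cpt2, a carnitine palmitoyltransferase of the inner mitochondrial membrane, fell by 0.69 ± 0.09, and Hadha, a subunit of the trifunctional protein, fell by 0.57 ± 0.07 (limma adjusted p = 0.000202 and 0.000196). Lipe, hormone-sensitive lipase, fell by 1.87 ± 0.16 (limma adjusted p = 2.5e-05), and Mfsd2a fell by 1.74 ± 0.33 (limma adjusted p = 0.00174). All groups of a stage can share collection and preparation, and such differences cannot be told apart from the change with stage. Of the 24 genes named by rule in this comparison, 21 kept their call when E16 or E18 was left out.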

How the data were processed

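RNA-seq of 24 libraries from sorted neurons, 2 in each of 12 groups, was deposited as 1 table with 1 column per group. No unit stands in the header. FPKM was inferred for the deposited values, because Cufflinks was used and no value is below 0. Per the submitters' processing notes, the authors used TopHat2, Cufflinks and the mouse build mm9. Details of software versions, annotation, strand use, scaling and pooling were not given in the sources used here. Column sums ran from 355965 to 473871 FPKM.

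The members and lists were chosen with earlier results of these data known. A gene was tested if 2 or more columns reached 1 FPKM, which left 13946 genes. The fit used was limma-trend on log2(FPKM + 1), in R 4.3.3 with limma 3.58.1 and statmod 1.5.0, with stage and subtype terms, 12 values, 6 residual degrees of freedom and Benjamini-Hochberg adjustment. It was tested on simulated data. Lists were matched by gene name or older symbol, 122 of 122. Up to 3 called genes per list and comparison, those with the largest difference, were eligible to be named. Genes named outside that rule (Gpihbp1, Apoc2, Cd36, Ppara, Pparg, Fabp4, Pmp2, Sel1l, Furin, Fads2 and single marker genes) were chosen after their values were seen. For each member the 3 genes with the highest Pearson correlation over the 12 groups were taken, among genes that reached 5 FPKM in a group; the result for Slc27a1 is not reported here. Promoters of 5 of the 9 genes were matched in RefSeq (GRCm38.p6, not the build of the deposited table). Values of exactly 0 are called listed at 0, since they can be failed estimates.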

Additional observations from a re-analysis of the deposited data

Results flagged for a closer look

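Lpl moved in opposite directions in callosal and subcerebral neurons. On the log2(FPKM + 1) scale the change from E15 to P1 was 2.77 in callosal neurons and -3.76 in subcerebral neurons. At each of the 3 steps between stages the callosal value went up and the subcerebral value went down. With 1 pooled value per group the difference was not tested, and Lpl was chosen with it in view.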

How the results depend on the processing

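The alternatives were a pseudocount of 0.1, no filter, a filter of 5 FPKM, median-ratio scaling, quantile normalization and leaving out each stage. Of 216 recomputed mean differences and stage changes of the 9 genes, 213 moved by less than the spread over stages or subtypes and none changed sign beyond that spread. Leaving out 1 of 4 stages cannot move a mean by more than that spread. Those recomputations could not come out otherwise, so nothing is read from their part of the count. The values that moved further, all with a pseudocount of 0.1, were Lipg at 3.65 (callosal minus subcerebral) and -3.54 (subcerebral minus corticothalamic), and Angptl4 at -1.28 (callosal minus corticothalamic). Small means that crossed 0 were Lpl (0.28 without E15, 0.01 without E16) and Lmf1 (-0.06 without P1) in callosal minus corticothalamic, and Angptl4 (0.04 without E16) and Fabp3 (-0.04 with quantile normalization, -0.07 without E18, -0.01 without P1) in subcerebral minus corticothalamic. Counts of lipid genes called depended on the stages kept. Callosal minus subcerebral gave 28 in all, and 6, 6 and 14 without E16, E18 and P1. Callosal minus corticothalamic gave 39, and 19 and 17 without E16 and E18. Subcerebral minus corticothalamic gave 30, and 50, 3, 3 and 10 without E15, E16, E18 and P1. Each such fit has fewer values. Over all genes the last comparison gave 3835 calls, and 6258, 330, 251 and 1051 in the same order. No paired analysis was possible because the columns carry no replicate, and leaving out a single library was not possible for the same reason. Depth is unknown, so the precision of low values such as those of Lipg and Angptl4 is too.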

Other observations

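The genes whose values ran closest to a member over the 12 groups are given as a description. For Lpl they were Adamts3 (Pearson r of 0.90 in log2(FPKM + 1)), which cuts procollagen, Kdsr, an enzyme of sphingolipid synthesis (0.89), and Slc23a2, an ascorbate transporter (0.89). For Lipg the closest was Camk1, a calcium/calmodulin-dependent kinase (0.96), and for Lmf1 it was Nfs1, a cysteine desulfurase of mitochondria (0.95). For Angptl4 it was Ogdhl, a relative of a citric acid cycle dehydrogenase subunit (0.93).

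For Fabp3 the closest were Pcdha4, Pcdha5 and Pcdha11, protocadherins of 1 gene cluster (0.99 each). Those genes share constant exons, so their separate levels are uncertain. For Fabp5 the closest were Psmg1, a proteasome assembly chaperone (0.99), Slc25a1, the mitochondrial citrate carrier whose citrate feeds fatty acid synthesis (0.98), and Eef1d, a translation elongation factor subunit (0.98). For Fabp7 the highest value was 0.89, for 3110007F17Rik. For Slc27a4 it was 0.99, for Arpc1a, a subunit of the actin-nucleating Arp2/3 complex. Each set was the best of 10427 or 10428 genes over 12 points, and groups of 1 subtype or stage are not independent.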
